A study of Mus musculus with 10 samples.

Results

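The genes described here are 8 of the 19937 genes measured in the hippocampus of Ts65Dn mice and their control littermates. They code for transcription factors or their partners: Gabpa, Bach1, Ets2, Erg, Runx1 and Sim2, which lie in the part of mouse chromosome 16 (Mmu16) that Ts65Dn mice carry in 3 copies, and Gabpb1 and Gabpb2, the partner subunits of GABPA, which lie on chromosomes 2 and 3 and are present in 2 copies. They were chosen by name and position, not by a rule on their measured values, though earlier results of these data were known. Each of the 8 had exactly 1 transcript cluster (the probe set of a transcript) on the array. The data come from 10 male mice of 16 weeks, 5 Ts65Dn and 5 control, each measured on its own Affymetrix Mouse Gene 1.0 ST array with RNA of the right and left hippocampus together. Ts65Dn is a model of Down syndrome in which a small additional chromosome brings an additional copy of the Mmu16 genes from Mrpl39 to Zbtb21 and of the chromosome 17 (Mmu17) genes from Pisd-ps2 to Pde10a. The Mmu17 genes have no homologues on the human chromosome that is trisomic in Down syndrome, and each difference between genotypes given here is measured with both additions present. All the mice, control included, were on the F1 hybrid B6C3B background. Values are log2 signals, so a difference of 1 is a doubling, and a fold is Ts65Dn over control.

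GABPA is the DNA-binding subunit of the GA-binding protein, an ETS-family factor of the promoters of many mitochondrial and ribosomal genes. It has no activation domain of its own and works in a complex with GABPB1 or GABPB2. ETS2 and ERG are also ETS factors: ETS2 acts downstream of growth factor and MAP kinase signalling, whereas ERG is best known for keeping endothelial cells in their differentiated state. BACH1 pairs with small MAF proteins and, until haem displaces it, represses haem oxygenase 1 and other antioxidant genes that NRF2 activates at the same sites. RUNX1 binds DNA with CBFB and is a master regulator of blood cell formation that is also found in microglia. SIM2 is a bHLH-PAS factor, a homologue of the Drosophila single-minded gene, which pairs with ARNT and acts mainly in the embryonic midline and forebrain.

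Promoter sequences of the 3 members with the clearest separation of the genotypes are shown because the members lie in different promoter settings. Coordinates and sequences are those of RefSeq on GRCm38.p6, written 5′ to 3′ on the plus strand, and a window is 250 bases before to 50 bases after an annotated start. The start of Gabpa used here lies 148 bases from a start of Atp5j, a gene of a mitochondrial ATP synthase subunit, which is read the other way. Their windows therefore share 247 bases (chr16:84834927-84835173). The gene records themselves overlap, as that of Gabpa begins at 84834891 and that of Atp5j ends at 84835857. The stretch between both starts, chr16:84834977-84835123, holds 1 match to the ETS motif CCGGAAG, the kind of site that GABPA and ETS2 can bind. The shorter string GGAAG stands there 2 times, 1 of them within that match. The capitals below mark the CCGGAAG match, read on the minus strand. They also mark the GC box GGGCGG, the site of SP1-type factors, in the 250 bases before the start of Bach1 (chr16:87698704-87698953) and of Ets2 (chr16:95702157-95702406).
Gabpa and Atp5j: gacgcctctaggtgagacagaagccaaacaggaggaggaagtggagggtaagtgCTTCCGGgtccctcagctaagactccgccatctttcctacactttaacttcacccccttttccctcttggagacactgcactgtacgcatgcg
Bach1: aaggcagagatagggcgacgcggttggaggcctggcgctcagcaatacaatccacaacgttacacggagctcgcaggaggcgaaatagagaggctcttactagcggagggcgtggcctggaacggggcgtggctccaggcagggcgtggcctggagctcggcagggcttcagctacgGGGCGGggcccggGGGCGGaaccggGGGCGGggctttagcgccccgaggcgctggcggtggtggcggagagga
Ets2: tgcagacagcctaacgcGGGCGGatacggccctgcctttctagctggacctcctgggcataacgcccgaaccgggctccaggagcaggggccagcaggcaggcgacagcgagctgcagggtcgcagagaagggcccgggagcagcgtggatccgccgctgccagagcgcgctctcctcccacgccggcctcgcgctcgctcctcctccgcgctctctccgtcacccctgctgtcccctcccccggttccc
Both strands were searched. CCGGAAG stood in 8.86% of 32851 windows of the RefSeq set, and among the 7 members with a window it was found in that of Gabpa alone. GGGCGG stood in 35.7% of all windows, 4 times in the window of Bach1, once in that of Ets2, and also in windows of Gabpb1 and Erg. TGTGGT, the core of the RUNX site (16.8% of windows), was found 2 times in a window of Runx1, and TACGTG, a SIM and ARNT site (3.23%), 2 times in that of Gabpb2. TGACNNNGC, the antioxidant response element at which BACH1 and NRF2 compete (12.4%), was in no window of these 7 genes. A match describes the letters and does not show that a factor binds there.

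Of the 6 members in 3 copies, Ets2 and Bach1 rose in Ts65Dn hippocampi at an adjusted p under 0.05. Gabpa was 1.34-fold higher without passing that threshold, Erg and Runx1 lay a little above the control level with overlapping groups, and Sim2 had the same mean in both genotypes. These 2 of 6 calls (33.3%) stood against 0.312% of the 23410 tested transcript clusters called higher and against 40 of the other 121 measured genes of the 3-copy part of Mmu16 (33.1%), so the share of the members called was near that of the genes around them. Over both directions 0.316% of the tested transcript clusters were called. In 3 of the 6 genes (Gabpa, Bach1 and Ets2) every Ts65Dn mouse lay above every control mouse, as did 0.577% of all tested transcript clusters and 49 of the other 121 Mmu16 genes (40.5%). The median log2 difference of the 6 members was 0.22 (1.16-fold), beside 0.20 (1.15-fold) for the 121 other genes and -0.00 over all tested transcript clusters. These 121 genes include many of low signal with differences near 0, such as most Krtap genes. Their shares and median are therefore no comparison at like signal, which is given further below and in which Bach1 and Erg lay low. Neither 2-copy partner was called by limma, at an unadjusted p under 0.05, or by the rank method used as an alternative. As a check of the tissue label, 10 marker genes of hippocampal excitatory neurons were read, of which Camk2a and Slc17a7 also mark other forebrain neurons. Their mean lay between 10.41 and 10.70 in Ts65Dn arrays and between 10.58 and 10.65 in control arrays, and the mean signal of each of the 10 was above the 95th percentile of the olfactory receptor genes described with Sim2, although signals of different probe sets share no scale.

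**Figure D1:**
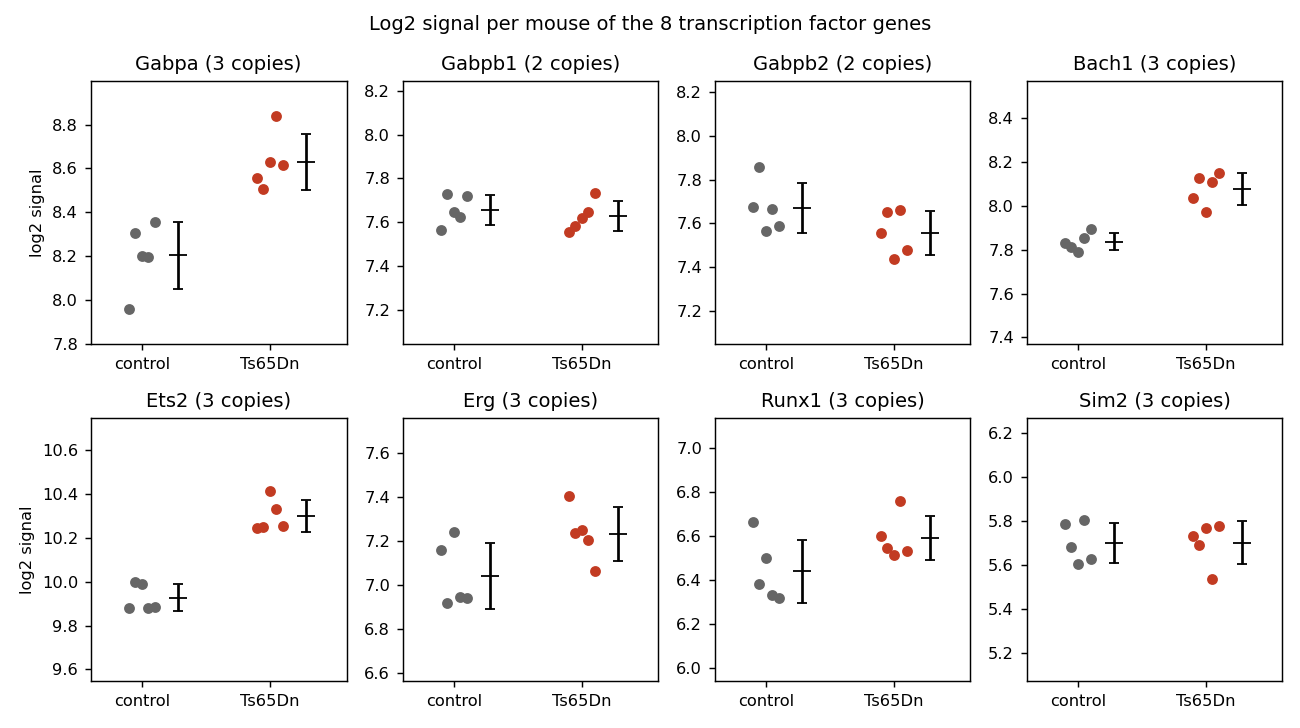
Log2 signal of the 8 genes in each mouse (points, 5 control in grey and 5 Ts65Dn in red), with the mean and SD of each group beside them as a black bar; each panel spans 1.2 log2 units. The groups are apart for Gabpa, Bach1 and Ets2, and overlap for Gabpb1, Gabpb2, Erg, Runx1 and Sim2.

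Gabpa (transcript cluster 10436678, 16:84834891-84863783) had log2 signals of 8.56, 8.51, 8.63, 8.84 and 8.62 in Ts65Dn replicates 1 to 5, and of 7.96, 8.31, 8.20, 8.20 and 8.35 in control replicates 1 to 5. The lowest Ts65Dn value was above the highest control value, and the control mice were spread wider, mainly through replicate 1. The means were 8.63 ± 0.127 and 8.20 ± 0.153 (SD, n = 5 each), a log2 difference of 0.43 ± 0.08 (SE) or 1.34-fold (95% interval 1.19 to 1.52). The adjusted p was 0.0662, just outside the threshold, and the exact permutation p of this gene alone was 0.00794, the smallest that 5 against 5 mice can give. In RNA of a whole tissue, a change in the number of cells that express a gene and a change of its RNA per cell cannot be told apart, here or for the genes below.

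The partner subunits did not show this difference between genotypes. Gabpb1 (transcript cluster 10487252, 2:126628907-126684435), whose protein brings the activation domain to the complex, read 7.56, 7.59, 7.62, 7.65 and 7.73 in Ts65Dn and 7.57, 7.73, 7.65, 7.63 and 7.72 in control mice. These values intermingled fully, with a log2 difference of -0.03 ± 0.05 (0.980-fold, 95% interval 0.915 to 1.05, adjusted p = 1). Gabpb2 (transcript cluster 10500103, 3:95181766-95218110), the alternative partner, read 7.56, 7.65, 7.44, 7.66 and 7.48 in Ts65Dn against 7.67, 7.86, 7.57, 7.67 and 7.59 in control mice. Its log2 difference was -0.11 ± 0.06 (0.925-fold, 95% interval 0.839 to 1.02, adjusted p = 1), and the groups overlapped. After each genotype's mean was subtracted, Pearson's r with Gabpa over the mice was 0.69 for Gabpb1 and 0.14 for Gabpb2, a description without a test.

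Whether Gabpa differed between genotypes by another amount than its partners was tested on the difference of the log2 signals within each mouse. Because signals of different probe sets share no scale, the value of 1 mouse has no meaning as a subunit ratio, and only its shift between genotypes does. Gabpa minus Gabpb1 was 1.00, 0.92, 1.01, 1.19 and 0.89 in the Ts65Dn mice and 0.39, 0.58, 0.55, 0.57 and 0.64 in the control mice. The groups did not overlap, and the shift of 0.45 on the log2 scale (1.37-fold) had an exact two-sided permutation p of 0.00794. Gabpa minus Gabpb2 was 1.00, 0.85, 1.19, 1.18 and 1.14 in the Ts65Dn mice and 0.29, 0.45, 0.63, 0.53 and 0.77 in the control mice. Here too every Ts65Dn mouse was above every control mouse, with a shift of 0.54 (1.45-fold) and an exact permutation p of 0.00794. After adjustment over these 2 comparisons both exact p-values stayed at 0.00794. In these hippocampi the RNA of the 3-copy subunit was thus higher relative to that of each 2-copy partner in all 5 Ts65Dn mice.

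**Figure D2:**
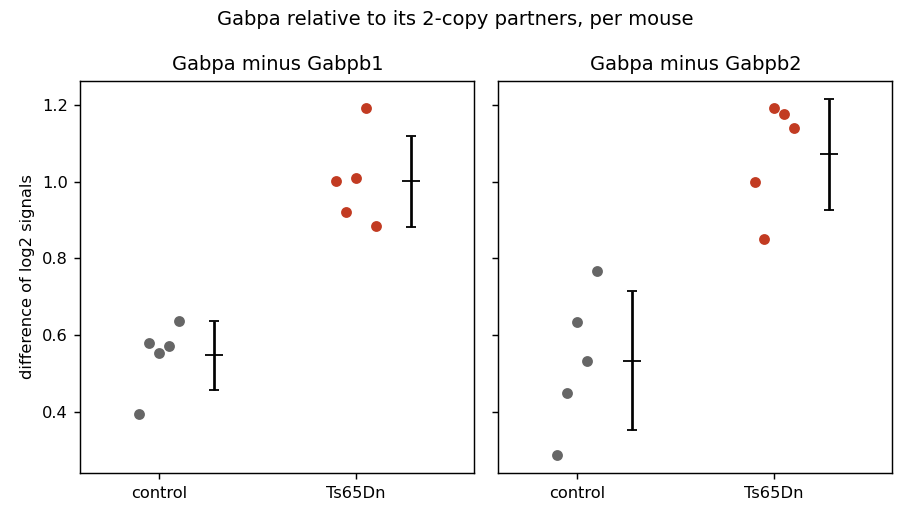
Log2 signal of Gabpa minus that of Gabpb1 (left) and of Gabpb2 (right) in each mouse, with the group mean and SD as black bars. All 5 Ts65Dn points lie above all 5 control points in both panels, by 0.45 and 0.54 on average; the height itself depends on the probes.

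Ets2 (transcript cluster 10437160, 16:95702407-95721049) was the brightest of the 8 genes and the one with the smallest p. Its log2 signals were 10.25, 10.25, 10.41, 10.33 and 10.25 in Ts65Dn and 9.88, 9.999, 9.99, 9.88 and 9.88 in control mice. Mice of a genotype lay close together and the groups were well apart. The log2 difference was 0.37 ± 0.05, or 1.29-fold (95% interval 1.21 to 1.39, adjusted p = 0.00364, exact permutation p = 0.00794).

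Erg (transcript cluster 10441093, 16:95359169-95586600), the other ETS member, is the next measured gene to Ets2 but has a lower signal. It read 7.41, 7.24, 7.25, 7.20 and 7.06 in Ts65Dn and 7.16, 6.92, 7.24, 6.95 and 6.94 in control mice. The groups overlapped, with 2 of 5 Ts65Dn mice above the highest control mouse. The difference of 0.19 ± 0.08 (1.14-fold, 95% interval 1.02 to 1.29) had an unadjusted p of 0.0311 and an adjusted p of 1 in the limma fit, and an exact permutation p of 0.0635. Beside it, the mean of 12 endothelial marker genes lay between 8.46 and 8.51 in Ts65Dn arrays and between 8.34 and 8.61 in control arrays; 10 of the 12 had a positive difference (median 0.06), none was called by limma or had an unadjusted p under 0.05, and the rank method called Slco1a4. The part of endothelial cells in the value of Erg was not tested.

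Bach1 (transcript cluster 10436734, 16:87698954-87733346) read 8.03, 8.13, 7.97, 8.11 and 8.15 in Ts65Dn and 7.83, 7.81, 7.79, 7.85 and 7.89 in control mice. Every Ts65Dn mouse was above every control mouse, and the control mice lay within a narrow band. The means were 8.08 ± 0.0738 and 7.84 ± 0.0399 (SD, n = 5 each), with a log2 difference of 0.24 ± 0.04 or 1.18-fold (95% interval 1.11 to 1.26). The adjusted p was 0.0404 and the exact permutation p was 0.00794. Although its fold was below that of Gabpa, its spread was smaller, and it passed where Gabpa did not. This call held in only 1 of the 10 fits that each left out 1 mouse, that without Ts65Dn replicate 3, with adjusted p-values from 0.019 to 0.154 and log2 differences from 0.22 to 0.27. With the replicate number as a block the difference of 0.24 was kept and the call was lost (adjusted p = 0.0568).

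Runx1 (transcript cluster 10441003, 16:92601466-92826074) read 6.60, 6.55, 6.51, 6.76 and 6.53 in Ts65Dn and 6.66, 6.38, 6.50, 6.33 and 6.32 in control mice. Control replicate 1 was higher than all but 1 of the Ts65Dn mice, so the groups overlapped, and without that mouse they did not, which raised the count of members without overlap from 3 to 4. The difference was 0.15 ± 0.07 (1.11-fold, 95% interval 0.996 to 1.24, adjusted p = 1), and the exact permutation p was 0.0952. The mean of 11 microglial marker genes lay between 8.72 and 9.05 in Ts65Dn and between 8.69 and 8.93 in control arrays, with 9 of 11 differences positive (median 0.06); none was called by limma or had an unadjusted p under 0.05, and the rank method called C1qc. The part of microglia in the value of Runx1 was not tested.

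Sim2 (transcript cluster 10437055, 16:94085104-94127032) read 5.73, 5.69, 5.77, 5.54 and 5.78 in Ts65Dn and 5.79, 5.68, 5.61, 5.81 and 5.63 in control mice. Both means were 5.70, and the fold of 1.00 had a 95% interval of 0.916 to 1.09 (adjusted p = 1, exact permutation p = 1). Olfactory receptor genes, which the hippocampus is expected to express little if at all, give a floor for the array: their median signal over 1027 genes was 4.84 and their 95th percentile 5.91. Sim2 was brighter than 91.8% of them and below that percentile. Adamts5, another 3-copy Mmu16 gene with a mean signal of 5.71, was called higher (0.29, adjusted p = 0.0289). This was the only call among 24 other 3-copy Mmu16 genes within 0.5 log2 units of the signal of Sim2. Whether the low signal of Sim2 limited its difference was not tested.

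Set in order of signal, the members ran from Ets2 (10.11) through Gabpa (8.42), Bach1 (7.96), Erg (7.14) and Runx1 (6.52) to Sim2 (5.70), and the folds were 1.29, 1.34, 1.18, 1.14, 1.11 and 1.00. Array summaries can shrink ratios near the background, and whether they did so here was not tested. Each member was set beside the other 3-copy Mmu16 genes with a mean signal within 0.5 log2 units of its own. For Ets2 these were 12 genes with a median difference of 0.41 (1.33-fold), of which 10 were called higher and 3 had a smaller difference than Ets2. For Gabpa, 15 genes had a median of 0.36 (1.29-fold), with 7 called, and 10 had a smaller difference. Bach1 lay low among its 11 like genes (median 0.38, 1.30-fold, 5 called), only 2 of which had a smaller difference. Erg also lay low, with 3 of 10 genes below it and a median of 0.38 (1.30-fold, 2 called). Runx1 was in the middle of 12 genes with a median of 0.08 (1.06-fold) and no call by limma, and Sim2 in the middle of 24 genes with a median of -0.00 and 1 call (Adamts5). The 95% interval of the fold lay wholly under 1.5, the ratio of 3 to 2 copies, in 5 of the 6 members, all but Gabpa. Among these is Sim2, with its signal below the 95th percentile of the olfactory receptor genes. The same count was not made for the other 3-copy Mmu16 genes, so it is not shown to be particular to the members.

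**Figure D3:**
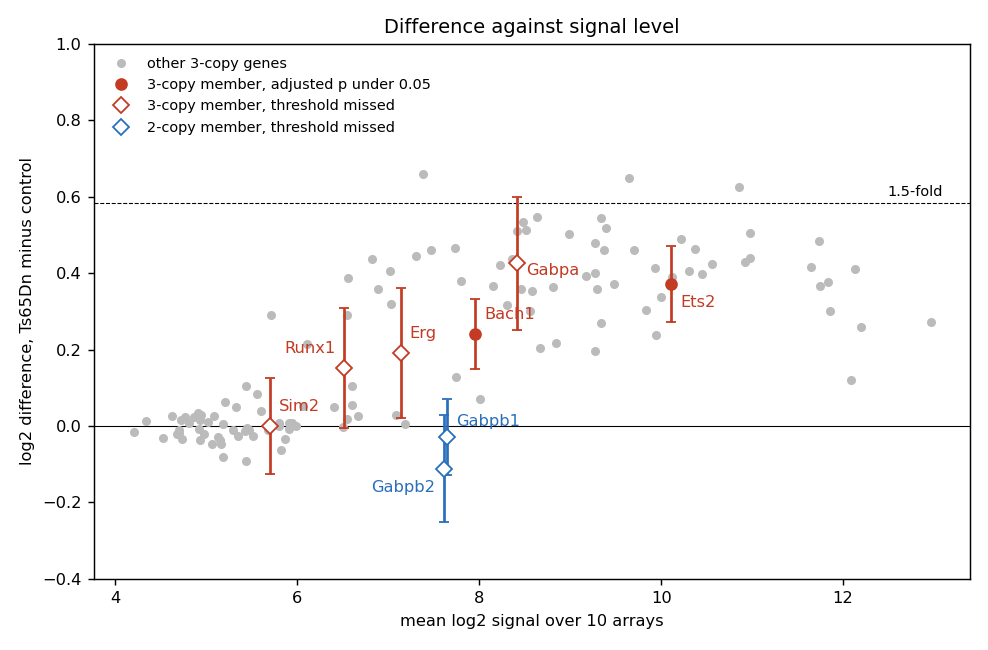
Log2 difference (Ts65Dn minus control) against mean log2 signal over the 10 arrays for the 6 members in 3 copies (red, filled if called), the partners in 2 copies (blue) and the other 121 measured 3-copy genes of Mmu16 (grey); bars are 95% intervals and the dashed line marks 1.5-fold. Most dim genes lie near 0 on the left, Ets2 and Gabpa lie in the band of bright 3-copy genes, and Bach1 lies at its lower edge.

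Among the nearest neighbours, called and uncalled genes lay side by side. Beside Gabpa, Jam2, an adhesion molecule of cell junctions, rose by 0.46 ± 0.05 (1.38-fold, adjusted p = 0.00226). Atp5j, which has 1 of its starts at the promoter region printed above, rose by 0.26 ± 0.03 (1.20-fold, adjusted p = 0.00402). Atp5j read 12.34, 12.34, 12.37, 12.33 and 12.27 in Ts65Dn and 12.08, 12.08, 12.04, 12.10 and 12.06 in control mice, without overlap. App, the amyloid precursor gene, rose by 0.27 ± 0.04 (adjusted p = 0.0161), and Gm10791 differed by 0.44 ± 0.11 without passing (adjusted p = 0.419). Around Bach1, the chaperonin subunit gene Cct8 rose by 0.63 ± 0.08 (1.54-fold, adjusted p = 0.00387) and the kainate receptor gene Grik1 by 0.32 ± 0.04 (1.25-fold, adjusted p = 0.00347), while the dim Map3k7cl and 2810407A14Rik differed by 0.05 ± 0.04 and 0.03 ± 0.04 (adjusted p = 1 for both). Around the Erg and Ets2 pair, the potassium channel gene Kcnj6 rose by 0.36 ± 0.05, the proteasome assembly gene Psmg1 by 0.36 ± 0.06 and the bromodomain gene Brwd1 by 0.51 ± 0.07 (adjusted p = 0.0153, 0.0307 and 0.00714), whereas the dim Kcnj15, with a mean signal of 5.91, differed by -0.01 ± 0.05.

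The neighbours of Runx1 and Sim2 had mean signals from 5.32 (2410124H12Rik) to 9.17 (Cbr1). Cldn14 (7.09), Clic6 (7.38) and Hlcs (7.47) lay near the median of all tested transcript clusters (7.40). Near Runx1, Cbr1, a carbonyl reductase gene, rose by 0.39 ± 0.07 (1.31-fold, adjusted p = 0.0321), and the dimmer Setd4 and 2410124H12Rik differed by 0.10 ± 0.05 and 0.05 ± 0.05 (adjusted p = 1 for both). Clic6 differed by 0.66 ± 0.78 (adjusted p = 1), less than its error. It is a gene of the choroid plexus, and the mean of 8 choroid plexus markers ran from 6.96 to 9.61 in Ts65Dn and from 6.99 to 9.43 in control arrays, so this tissue's signal varied widely within both genotypes. Near Sim2, Hlcs, which attaches biotin to carboxylases and histones, rose by 0.46 ± 0.07 (1.38-fold, adjusted p = 0.0124). Chaf1b (-0.00 ± 0.06), Cldn14 (0.03 ± 0.07) and Ripply3 (0.02 ± 0.05) had adjusted p-values of 1, as Sim2 had.

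**Figure D4:**
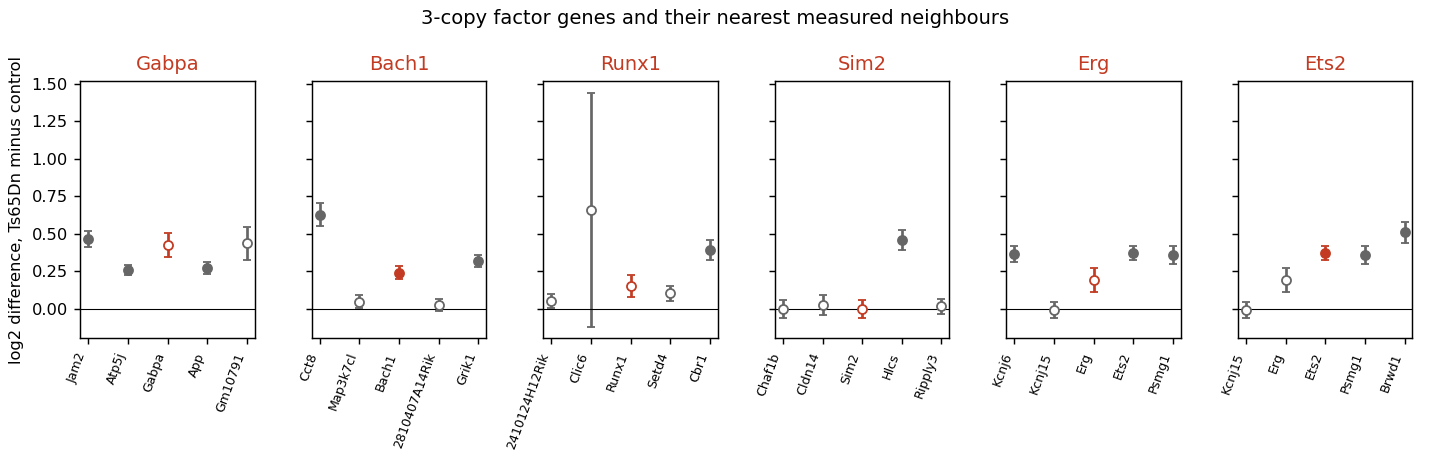
Log2 difference (Ts65Dn minus control) with its SE for each 3-copy member (red) and its 2 nearest measured genes on either side (grey), in chromosome order and at equal spacing; filled points passed adjusted p 0.05. Called and uncalled genes alternate within a few genes of each other, and the widest bar is that of Clic6 beside Runx1 (0.66 ± 0.78).

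The other transcription factor genes on the 3-copy part of Mmu16 that were looked at, Olig1, Olig2, Prdm15 and Zbtb21, all had positive differences (median 0.20), and none was called by limma. Olig1, a factor of the oligodendrocyte lineage, differed by 0.24 ± 0.05 (adjusted p = 0.241). It read 10.12, 10.05, 9.94, 9.99 and 10.23 in Ts65Dn and 9.80, 9.92, 9.80, 9.85 and 9.78 in control mice, so the groups did not overlap. Olig2, its close relative, differed by 0.20 ± 0.09 (adjusted p = 1), the zinc finger gene Zbtb21 by 0.20 ± 0.05 (adjusted p = 0.369) and Prdm15 by 0.13 ± 0.08 (adjusted p = 1). The groups of Zbtb21 did not overlap either. Every Ts65Dn value lay above every control value in 0.577% of all tested transcript clusters. At an unadjusted p under 0.05, Olig1 and Zbtb21 passed, and by the rank method 3 of the 4 did (Olig1, Olig2 and Zbtb21). Of all tested transcript clusters, 1.73% were higher at that unadjusted p, and the rank method called 5.36% in either direction.

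Relatives, binding partners and textbook target genes of the members that lie outside the 3-copy parts were followed as lists. Of these 80 genes, limma called none, none was higher and 1 (Cbfb) was lower at an unadjusted p under 0.05, and their median difference was -0.00. Over all tested transcript clusters, 1.73% were higher and 1.43% lower at that unadjusted threshold. The rank method, which called 5.36% of all tested transcript clusters, called Cox6a1 higher and Sim1 and Npas4 lower among the 80.

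The 22 other ETS factor genes measured had a median difference of -0.02 and ranged from -0.08 to 0.08, with 9 of 22 positive and none called by limma, by the rank method or at an unadjusted p under 0.05. Among them Ets1, the closest paralogue of Ets2, differed by -0.05 ± 0.07, Fli1, the closest paralogue of Erg, by 0.01 ± 0.06, and Etv1, Etv5 and Elk4, those with the smallest p, by -0.08 ± 0.05, 0.08 ± 0.05 and 0.06 ± 0.04. None of these 22 genes thus had a difference near that of Ets2 (0.37), whereas the 3-copy ETS gene Gabpa differed by 0.43. Fev, another ETS gene, was not analysed here. In the RUNX list of 5 genes the median was 0.01. Cbfb, the gene of the common partner of the RUNX factors, read 8.80, 8.76, 8.79, 8.78 and 8.84 in Ts65Dn and 8.85, 8.88, 8.82, 8.87 and 8.94 in control mice. It differed by -0.08 ± 0.03 (0.948-fold, unadjusted p = 0.0437, adjusted p = 1 by limma), with 1 Ts65Dn mouse inside the control range. Runx3 differed by -0.02 ± 0.05, and Runx2 was not analysed here.

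Among the 9 BACH, CNC and MAF factor genes, 4 differences were positive and the median was -0.00, with no call by limma or by the rank method and none at an unadjusted p under 0.05. The paralogue Bach2 differed by -0.08 ± 0.07, and the small MAF partners Mafk, Maff and Mafg by -0.05 ± 0.06, -0.05 ± 0.04 and -0.00 ± 0.04. Nfe2l2, the gene of NRF2, which competes with BACH1, differed by 0.08 ± 0.12. In the list of 16 BACH1 and NRF2 target genes, 8 differences were positive and 8 negative, the median was 0.00 and the range -0.12 to 0.09, again with none past any of these 3 thresholds. Hmox1, the haem oxygenase 1 gene and the best known target repressed by BACH1, read 7.27, 7.01, 7.10, 7.20 and 7.14 in Ts65Dn and 7.21, 7.29, 7.16, 7.29 and 7.24 in control mice. Its difference of -0.10 ± 0.05 had an adjusted p of 1, as had that of Gclc, the catalytic subunit of glutathione synthesis (-0.09 ± 0.05), and of Srxn1, sulfiredoxin (0.09 ± 0.05).

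In the bHLH-PAS list of 14 genes, 6 differences were positive and the median was -0.02. The SIM2 paralogue Sim1 was as dim as Sim2 (mean signal 5.53) and differed by -0.11 ± 0.06 (adjusted p = 1). The ARNT partners differed by -0.08 ± 0.06 (Arnt) and -0.04 ± 0.06 (Arnt2). Npas4, an activity-induced gene of neurons, read 7.01, 7.57, 7.77, 7.78 and 6.98 in Ts65Dn and 8.67, 8.51, 8.12, 7.68 and 6.94 in control mice. Its difference of -0.56 ± 0.31 was the widest of the list, but control mice spanned the whole Ts65Dn range and the adjusted p was 1.

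Of the GABP target list, 14 measured genes lay outside the 3-copy parts; 8 of their differences were positive, the median was 0.01, and none was called by limma or had an unadjusted p under 0.05. Tfam, the mitochondrial transcription factor A gene, differed by 0.10 ± 0.09, and Polrmt, the mitochondrial RNA polymerase gene, by -0.06 ± 0.04. Cox6a1, a cytochrome c oxidase subunit gene, read 11.55, 11.57, 12.06, 12.06 and 10.98 in Ts65Dn and 11.03, 11.46, 11.18, 11.51 and 11.16 in control mice, a difference of 0.38 ± 0.19 with a wide overlap (adjusted p = 1). Promoter windows were found for 14 genes of the whole list, a set that includes Tfb1m and Cox7c and lacks Cox4i1 and Cox6c. The ETS motif CCGGAAG stood in 6 of these windows (42.9%), beside 8.86% of all windows, a description without a test. The list gene with the widest separation, Tfb1m, a mitochondrial ribosomal RNA methyltransferase gene, is itself in 3 copies, on Mmu17 (17:3519250-3557796). It read 9.03, 8.73, 8.44, 8.99 and 8.76 in Ts65Dn and 8.33, 8.29, 8.35, 8.15 and 8.41 in control mice, without overlap, and its difference of 0.48 ± 0.10 (1.40-fold) had an adjusted p of 0.150. The promoter window of Tfb1m held 0 matches to CCGGAAG. Its own additional copy and the level of Gabpa cannot be told apart in this design.

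**Figure D5:**
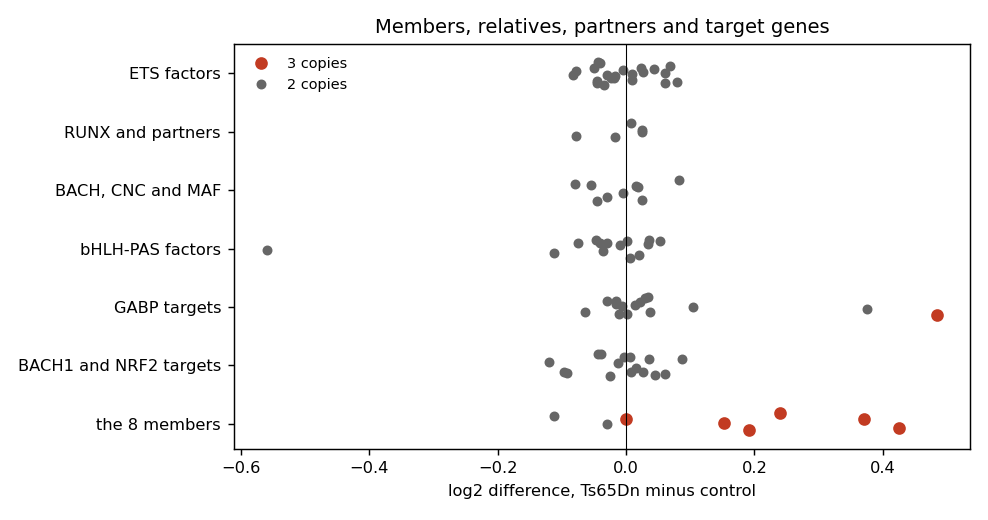
Log2 difference (Ts65Dn minus control) of each measured gene in 6 lists of relatives, partners and target genes and of the 8 members (bottom row); red points are genes in 3 copies, grey points genes in 2 copies, and the vertical scatter within a row has no meaning. Genes in 2 copies lie around 0, apart from Cox6a1 (0.38) and Npas4 (-0.56), and the red point among the GABP targets is Tfb1m (0.48).

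The genes most like each member across mice were sought outside the 3-copy parts, by Pearson's r over the 10 arrays after each genotype's mean was subtracted. For Gabpa they were Galnt12 (r = 0.98), Utp6 (0.97) and Cdk12 (0.96), for Gabpb1 Msh3 (0.96), Serinc5 (0.95) and Usp13 (0.94), and for Gabpb2 Rxfp2 (0.96), Spry4 (0.95) and Mettl17 (0.95). For Ets2 they were Bcl2l13 (0.93), Pak3 (0.92) and Tbc1d23 (0.91), and for Bach1 Cers5 (0.97), Dnajc19 (0.94) and Tut4 (0.93). For Erg they were Snx15 (0.94), Pelp1 (0.93) and Cd36 (0.93), for Runx1 Zfp36, Ccna2 and Lcp2 (each 0.95), and for Sim2 Ly6k (0.98), Dppa3 (0.97) and Armc12 (0.96). These are the highest of the many values per member over arrays that share their normalisation, and they are given as a description without a test.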

How the data were processed

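RNA of both hippocampi was measured on 1 array per mouse, 5 mice per genotype, labelled as biological replicates. The authors deposited log2 signals made by RMA, which can shrink ratios near background; the submitters' processing notes also name limma and mm10, without versions. Of 35556 rows, the 23410 with a gene symbol were tested with limma 3.58.1 (lmFit and eBayes, R 4.3.3). The model held genotype alone, and two-sided p-values were adjusted by Benjamini-Hochberg and called at 0.05. A gene was represented by its row with 1 symbol and the highest mean. Coordinates are those of RefSeq gene records (GRCm38.p6), matched for 21698 of 21789 single-symbol rows by gene number. Probe positions were not checked. Sim2 had no promoter window in the table used.

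The methods of the study order genes by fold-change ranks across array pairs. Such a rank method (25 pairs, p under 0.05) was kept as an alternative. It sets each row's score against the mean and spread of all rows and calls at an unadjusted p. It therefore makes calls even without any change: on arrays simulated so, it called at least 1302 of 23410 rows in each of 3 draws. On such arrays limma, called at an adjusted p under 0.05, made 0 calls in 20 draws. These thresholds are unlike, so the counts do not compare the false calls of the methods. With 200 changed rows, limma recovered on average 93.8% of log2 changes of 0.6 and 60.25% of those of 0.3, and 5.18% of its calls were false. All these simulated rows were drawn independently, from a normal distribution with each row's measured mean and spread. Variation that rows share across the real arrays was left out, so these counts and rates may not hold for the real arrays. Single values were tested by exact permutation over the 252 allocations of the mice. The number of mice limits the precision.

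The members and lists were chosen with earlier results of these data known. Genes named were the members, their 2 nearest measured neighbours per side, direct partners and closest paralogues, the 2 to 4 genes of smallest p per list, and the 3 most like genes per member. Alternatives changed the rows tested, dim-row filters, normalisation, variance model, array weights, threshold and test, added the replicate number as a block, or left out 1 mouse.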

Additional observations from a re-analysis of the deposited data

How the results depend on the processing

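Ets2 was called under all 10 fits that left out 1 mouse and all 11 other settings (adjusted p 0.00339 to 0.0159). Gabpa was called in none of the 10 (adjusted p 0.0596 to 0.204, log2 difference 0.36 to 0.46) but in 6 of the 11: with a mean signal of at least 6 or of at least 7, after quantile normalisation again, after cyclic loess, with a trended robust variance, and at an adjusted p of 0.1 (range over the 11, 0.0370 to 0.120). Bach1 lost its call with all rows of the table, with a mean signal of at least 6, with a trended robust variance and with the replicate block (adjusted p over the 11, 0.0209 to 0.131). Of the 8 members, 2 were called; leaving out 1 mouse gave 1 to 2, testing all rows of the table gave 1 and the replicate block gave 1. The rank method called 5 of the 8 (Gabpa, Bach1, Ets2, Erg and Runx1) and 1255 rows in all against 74 by limma. The cause of these moves was not tested, and the thresholds of the rank method and of limma are unlike. Same-numbered mice deviated together in 4 of 5 numbers (correlations 0.269 to 0.507) but not in replicate 4 (0.031). The labels do not say whether the numbers pair the mice. Differently numbered mice were not compared, so whether same-numbered mice share a factor was not tested. The main model left the numbers out. With the replicate block, the shifts of Gabpa relative to Gabpb1 (0.45) and to Gabpb2 (0.54) kept their size at an exact p of 0.0625, the smallest that 5 pairs allow, and over 14 settings they ran from 0.41 to 0.48 and from 0.48 to 0.60. No called result changed direction. The difference of Sim2, -0.0003, was never called and took either sign (-0.0244 to 0.0407). The count of members without overlap was 3 under the alternatives run for it, except 4 without control replicate 1 (Runx1 joined). The other scalings moved the median of all rows by 0.0023 to 0.0045. Each member had 1 row, so another row per gene could not be tried. The mean signal of Sim2 lay below the 95th percentile of olfactory receptor genes, which limits what its value shows.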

Other observations

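Markers of the cell types not set beside a member above held no call by limma. Among 10 markers of hippocampal excitatory neurons, Wfs1, a marker of CA1 neurons, was lower at an unadjusted p under 0.05 (-0.35 ± 0.07, adjusted p = 0.0925), and the rank method called 3 (Wfs1 lower, Spink8 and C1ql2 higher). The 8 choroid plexus markers all had positive differences (median 0.23). These 8 genes, 5 astrocyte markers (2 positive, median -0.06), 5 oligodendrocyte markers (0 positive, median -0.05) and 1 red blood cell marker (0.17) had no call by the rank method and none at an unadjusted p under 0.05.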
